A study of Mus musculus with 6 samples.

Results

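The retinoblastoma pocket protein genes Rb1, Rbl1 and Rbl2 and the E2F transcription factor genes E2f1, E2f2, E2f3, E2f4, E2f5, E2f6 and E2f8 were followed through the acute loss of Dicer in mouse embryonic stem (ES) cells. Each gene was represented by the probe sets that carry its symbol and no other. This gave 10 genes with 23 probe sets, out of 18193 genes and 45037 probe sets on the array. The Dcr KO group was 3 arrays of Dicer flox/flox ES cells that received GFP together with Cre recombinase, the enzyme that cuts out the floxed segment. The Dcr WT group was 3 arrays of the same floxed cells that received GFP without Cre. RNA was taken 5 days after transfection from cells grown on gelatin in serum with LIF, a cytokine that keeps ES cells undifferentiated, and the methods describe biological triplicates of a polyclonal population. The Dcr KO cells are therefore a mixture that was mostly, not wholly, recombined, and neither group held cells with Cre and intact Dicer alleles, so that an effect of Cre and one of the deletion cannot be told apart.

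Pocket proteins bind E2F factors and hold the genes of DNA replication and mitosis in check until cyclin-dependent kinases phosphorylate them. Rb1 binds mainly the activating factors E2f1, E2f2 and E2f3, whereas Rbl1 (p107) and Rbl2 (p130) bind the repressive factors E2f4 and E2f5 and join them in the DREAM complex with the MuvB core. E2f6 and E2f8 repress without a pocket protein. Mouse ES cells are known for a short G1 phase and for pocket proteins that stay largely phosphorylated. Dicer cuts the miRNA precursors of these cells, and Rbl2 is known from earlier work in mouse ES cells as a target of the miR-290 family and as a repressor of de novo DNA methyltransferase genes.

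The miRNAs of that family are shown because Rbl2 is a known target of their seed. Seeds (bases 2 to 8) are in capitals, and the sequences and positions are those of RefSeq on GRCm38.p6. The table holds 13 mature products of the miR-290 cluster, within chr7:3218639-3220837. The first group below, with the seed AAGUGCU, has 5 members in the table, 2 of them from the miR-302 cluster. The other groups have seeds that differ from it in the last base or are shifted by a base, as in the miR-17 family, whose seed AAAGUGC is carried by 7 mature miRNAs.
mmu-miR-291a-3p: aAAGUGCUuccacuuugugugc
mmu-miR-294-3p: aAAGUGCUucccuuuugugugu
mmu-miR-295-3p: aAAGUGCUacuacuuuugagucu
mmu-miR-302b-3p: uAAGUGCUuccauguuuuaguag
mmu-miR-302d-3p: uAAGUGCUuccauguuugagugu
mmu-miR-290a-3p: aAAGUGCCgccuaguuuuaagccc
mmu-miR-291b-3p: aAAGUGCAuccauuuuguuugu
mmu-miR-17-5p: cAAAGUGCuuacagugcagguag
mmu-miR-20a-5p: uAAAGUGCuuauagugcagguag
The 6 bases AAGUGC lay within bases 2 to 8 of 16 of the 1679 mature miRNAs in the table. The sequences of miR-292a-3p and miR-302a-3p were not in the table, so that the groups and counts above are not complete. The study lists miR-292-3p among the members of the cluster with the AAGUGC seed. The levels of these miRNAs were not measured on the arrays, and target sites in the members were not searched here.

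Dicer1 mRNA was lower on the Dcr KO arrays. Its log2 level was 6.33, 6.59 and 5.92 on the Dcr KO arrays and 7.78, 7.89 and 7.16 on the Dcr WT arrays, a difference of −1.33 with an SE of 0.23 (adjusted p = 0.0134). Whether the floxed segment holds any of the Dicer1 probes was not given in the sources used here. All 10 ES cell markers were expressed. Their summed linear level was 49978 to 51322 on the Dcr KO arrays and 45218 to 49590 on the Dcr WT arrays. This sum, weighted to the brightest genes such as Dppa5a, was higher in Dcr KO cells without overlap. None of the 10 passed the test. Without overlap 4 were higher in Dcr KO cells (Pou5f1, Sox2, Zfp42 and Dppa5a) and 2 lower (Tdgf1 and Utf1). Over all genes tested these shares were 17.7% and 21.2%. Of the fibroblast markers 1 of 7 reached the minimum level (Col1a1), and its groups overlapped. The summed level was 63.6 to 71.4 in Dcr KO cells and 50.2 to 71.1 in Dcr WT cells. Among the genes below the minimum, Col3a1, Dcn and Postn were higher in Dcr KO cells without overlap. Col1a2 and Thy1 were lower without overlap, and Lum overlapped. Col3a1 had means of 4.21 in Dcr KO cells and 2.99 in Dcr WT cells. The summed neural markers were higher in Dcr KO cells, at 518 to 597 against 320 to 372 in Dcr WT cells, and most of that sum was Tubb3, which passed the test (0.73, adjusted p = 0.0100). Nes, the other neural marker tested, overlapped between groups (−0.07, adjusted p = 0.759). Sox1 and Pax6 were below the minimum and not tested, but each had every Dcr KO array above every Dcr WT array. Sox1 read 3.49, 3.38 and 3.02 in Dcr KO cells and 2.38, 2.47 and 2.36 in Dcr WT cells. Pax6 had means of 2.92 in Dcr KO cells and 2.33 in Dcr WT cells. Neurog2 was also below the minimum, and its groups overlapped. The primitive endoderm, trophectoderm and mesoderm lists had 1 of 6, 3 of 6 and 1 of 5 genes at or above the minimum. Their summed levels overlapped between groups, but most of the trophectoderm sum was Tfap2c. Gata3 was higher in Dcr KO cells without overlap (0.84, adjusted p = 0.0621), as was Cdx2, which was under the minimum. Tfap2c and Eomes overlapped. Mixl1, the mesoderm gene tested, was lower in Dcr KO cells without overlap (−0.64, adjusted p = 0.109). None of the genes tested in these lists passed. The part of these marker differences in the results on the pocket protein and E2F genes was not tested.

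Rbl2 was the pocket protein gene that rose in Dcr KO cells, and no E2F gene passed the test. A gene's level is the mean log2 value over its probe sets, and a gene was tested where its mean over all 6 arrays was at least 4 on that scale (16 on the linear scale), which 9 of the 10 members reached and E2f2 did not. With limma and p-values adjusted by Benjamini-Hochberg over 8782 genes, 1 of the 9 rose (Rbl2), 0 fell and 8 did not pass at 0.05. Among all genes tested 6.91% rose and 6.42% fell, so that the share of members called was close to that of the array. Unadjusted p-values were below 0.05 for Rbl2 and Rb1. The median difference over the 9 members, Dcr KO minus Dcr WT, was 0.14 on the log2 scale, beside −0.02 over all genes tested. The groups did not overlap for 2 members, both higher in Dcr KO cells (Rbl2 and E2f6), against 17.7% of all genes that were higher and 21.2% that were lower without overlap (38.9% in either direction). Differences of at least 1.2-fold, the size that the study used, were found upwards in 3 of the 9 (Rbl2, E2f8 and Rb1) and downwards in 1 (E2f4), against 18.1% of genes up and 22% down on the array. The plot of the 10 genes by array shows the separation of Rbl2 and the overlap of most others.

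**Figure D1:**
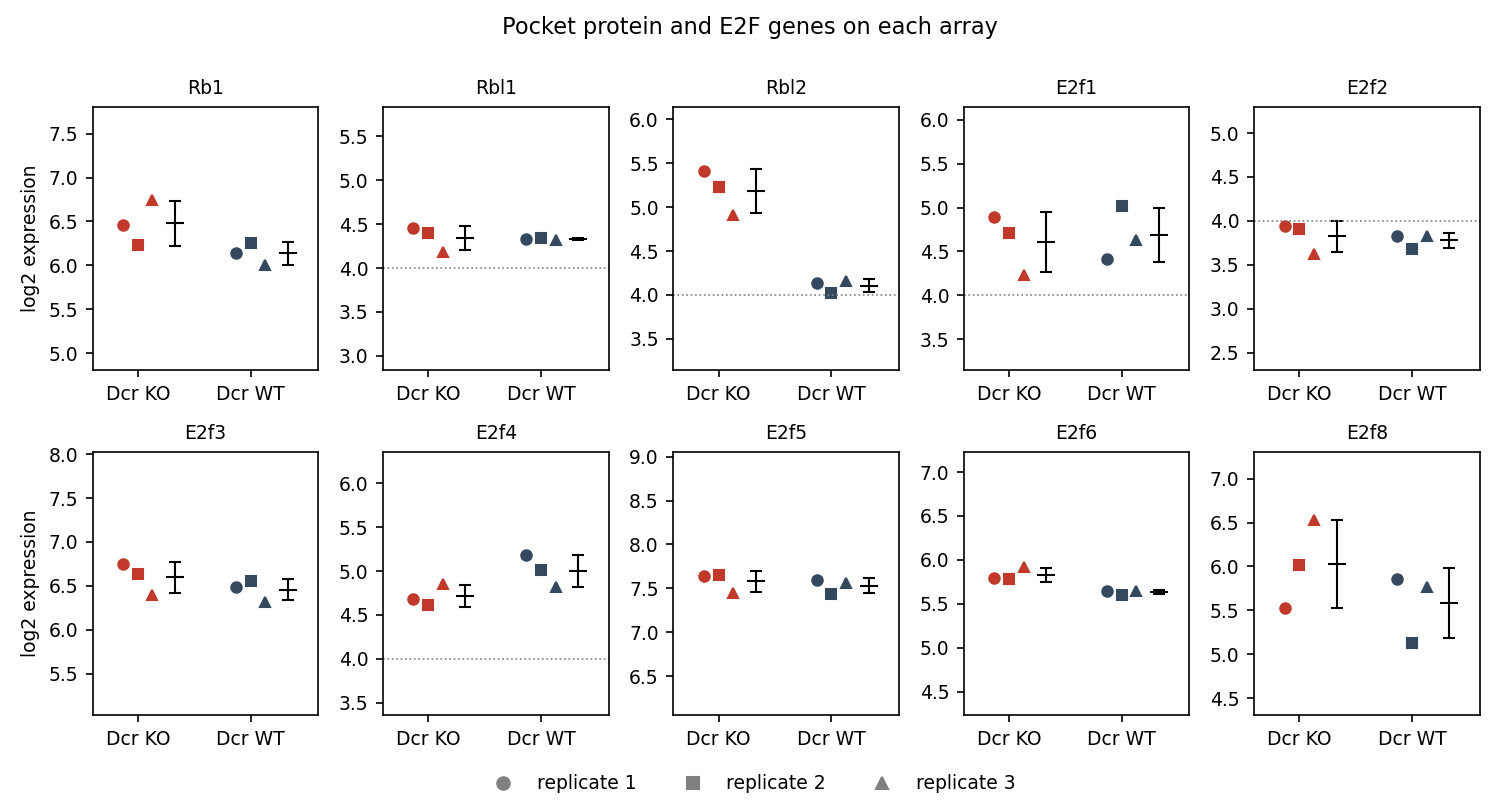
Log2 expression of each of the 10 genes (vertical axes, all spanning the same number of log2 units) on the 3 Dcr KO arrays (red) and the 3 Dcr WT arrays (blue), with marker shape for the replicate number, bars for the mean ± SD and a dotted line at the minimum level of 4 where it falls in range. Rbl2 lay at 4.92 to 5.41 in Dcr KO cells, above 4.02 to 4.16 in Dcr WT cells, and only E2f6 among the other genes had no overlap between groups.

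Rbl2, which encodes p130, the pocket protein of resting and slowly cycling cells, had log2 levels of 5.41, 5.23 and 4.92 on the Dcr KO arrays and 4.13, 4.02 and 4.16 on the Dcr WT arrays. The lowest Dcr KO array stood well above the highest Dcr WT array, and the Dcr KO arrays were spread more widely than the Dcr WT arrays. The means were 5.19 ± 0.25 in Dcr KO cells and 4.10 ± 0.07 in Dcr WT cells (SD, n = 3 each). The difference was 1.08 with an SE of 0.14 and a 95% interval of 0.76 to 1.40, a 2.12-fold higher level in Dcr KO cells (adjusted p = 0.0056). By size it stood at place 113 of the 8782 genes tested and at 108 of the 607 genes that rose. Its Dcr WT mean lay just above the minimum level, so that the gene was dim in Dcr WT cells. In bulk RNA, more cells with Rbl2 transcripts and more transcript per cell cannot be told apart.

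Both probe sets of Rbl2 were higher in Dcr KO cells. The brighter, 1425981_a_at, read 6.63, 6.49 and 6.02 in Dcr KO cells and 5.20, 4.98 and 4.95 in Dcr WT cells. Here too the groups were clearly apart, and the difference was 1.34 with an SE of 0.18, or 2.53-fold (adjusted p = 0.0113 over the 16571 probe sets tested, of which 5.24% rose and 3.47% fell). The call of this probe set was lost without Dcr KO replicate 2 (adjusted p = 0.0587) and without Dcr WT replicate 3 (adjusted p = 0.0521), with differences of 1.28 and 1.29. The dimmer, 1418146_a_at, read 4.19, 3.97 and 3.81 in Dcr KO cells and 3.06, 3.06 and 3.37 in Dcr WT cells. Its groups did not overlap, but its mean of 3.58 was under the minimum and it was not tested. The gene-level call did not rest on 1 array, since Rbl2 passed in all 6 fits without 1 array, with differences of 0.97 to 1.22 and a highest adjusted p of 0.027.

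Rb1, the retinoblastoma gene, gave different answers from its 2 probe sets. At the gene level it was 6.46, 6.24 and 6.74 in Dcr KO cells and 6.15, 6.26 and 6.01 in Dcr WT cells. The groups overlapped through Dcr KO replicate 2, which lay below Dcr WT replicate 2. The difference was 0.34 with an SE of 0.15 and an interval of 0.0030 to 0.68, and did not pass (adjusted p = 0.153). Its bright probe set, 1417850_at, read 9.43, 9.35 and 9.42 in Dcr KO cells and 8.87, 8.90 and 8.91 in Dcr WT cells. These groups were tight and clearly apart, at 1.42-fold (difference 0.51, SE 0.098, interval 0.28 to 0.74, adjusted p = 0.0288). That call was lost in each of the 6 fits without 1 array, where the difference stayed between 0.49 and 0.53 and the adjusted p between 0.0524 and 0.103. The dim probe set, 1444400_at, read 3.49, 3.12 and 4.06 in Dcr KO cells and 3.42, 3.62 and 3.10 in Dcr WT cells, under the minimum on average and in no consistent order. It was more widely spread than the bright one, and with the brightest probe set in place of the mean Rb1 passed (0.51, adjusted p = 0.0159).

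**Figure D2:**
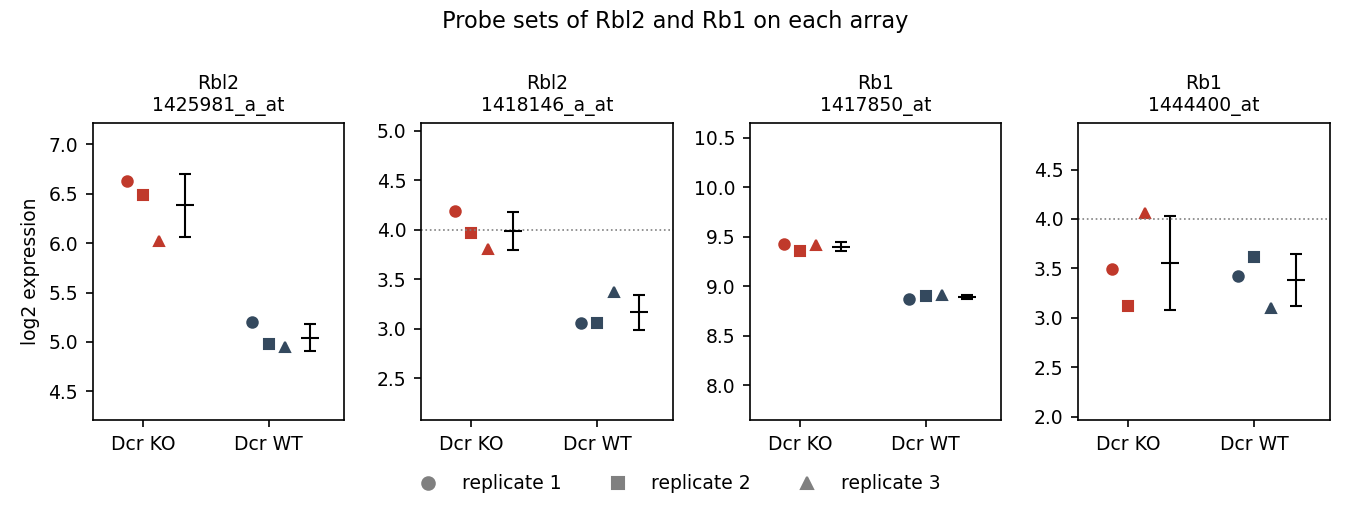
Log2 expression of the probe sets of Rbl2 and Rb1 (vertical axes, all spanning the same number of log2 units) on the 3 Dcr KO arrays (red) and the 3 Dcr WT arrays (blue), with bars for the mean ± SD and a dotted line at the minimum level of 4 where it falls in range. Both Rbl2 probe sets and the bright Rb1 probe set had every Dcr KO array above every Dcr WT array, and the dim Rb1 probe set did not.

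Rbl1, which encodes p107, the pocket protein of cycling cells, was nearly level between groups. Its values were 4.45, 4.40 and 4.19 in Dcr KO cells and 4.33, 4.35 and 4.32 in Dcr WT cells. The Dcr WT arrays all fell inside the range of the Dcr KO arrays. The difference was 0.01 with an interval of −0.23 to 0.26 (adjusted p = 0.943), which leaves room for changes of that size in either direction. The bright probe set 1424156_at read 8.41, 8.57 and 8.03 in Dcr KO cells and 8.14, 8.31 and 8.20 in Dcr WT cells (difference 0.12, adjusted p = 0.644). The probe set 1425166_at also overlapped (difference 0.07, adjusted p = 0.809), and the other 2, 1432604_at and 1454293_at, had means of 1.64 and 1.34. The pocket protein genes were not tested against each other, but the interval of Rbl2 lay above the upper bounds of both Rb1 and Rbl1.

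The activating E2F genes did not pass the test in either direction. E2f1, whose product drives entry into S phase, was 4.90, 4.71 and 4.23 in Dcr KO cells and 4.42, 5.02 and 4.63 in Dcr WT cells. Replicates within each group differed more than the groups did, with the lowest array in the Dcr KO group and the highest in the Dcr WT group. The difference was −0.08 with an interval of −0.56 to 0.41 (adjusted p = 0.82), and its sign turned without Dcr KO replicate 3 (0.11) or without Dcr WT replicate 2 (0.085). Both tested probe sets showed the same wide spread. The first, 1417878_at, read 6.13, 5.70 and 4.99 in Dcr KO cells and 5.32, 6.51 and 5.59 in Dcr WT cells (difference −0.20, adjusted p = 0.759). The second, 1431875_a_at, read 6.73, 6.46 and 5.90 in Dcr KO cells and 6.22, 6.73 and 6.45 in Dcr WT cells (difference −0.10, adjusted p = 0.798). In both, Dcr KO replicate 3 was the lowest array of all 6.

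E2f2, another activating factor, was close to the minimum level in both groups. Its values were 3.95, 3.91 and 3.63 in Dcr KO cells and 3.83, 3.68 and 3.83 in Dcr WT cells, a mean of 3.80 that kept it out of the gene-level test. Its brighter probe set, 1455790_at, was above the minimum, at 4.76, 4.87 and 4.26 in Dcr KO cells and 4.58, 4.47 and 4.30 in Dcr WT cells. The groups overlapped and the difference was 0.18 (interval −0.25 to 0.61, adjusted p = 0.544). E2f3, which is expressed as a long and a short form from separate promoters, was 6.75, 6.64 and 6.40 in Dcr KO cells and 6.49, 6.56 and 6.32 in Dcr WT cells. The groups overlapped, with a difference of 0.14 and an interval of −0.15 to 0.43 (adjusted p = 0.478). Its bright probe set 1434564_at read 9.55, 9.30 and 8.98 in Dcr KO cells and 9.18, 9.40 and 8.98 in Dcr WT cells, so that the lowest array of each group had the same value. The dim one, 1427462_at, had every Dcr KO array above every Dcr WT array, at 3.95, 3.97 and 3.82 against 3.80, 3.72 and 3.66 in Dcr WT cells, but was below the minimum.

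Among the repressive partners of p107 and p130, E2f4 was the only member other than E2f1 with a negative difference. Its single probe set, 1451480_at, read 4.68, 4.61 and 4.85 in Dcr KO cells and 5.18, 5.01 and 4.82 in Dcr WT cells. The groups overlapped only through the replicates numbered 3, the highest of the Dcr KO arrays and the lowest of the Dcr WT arrays. The difference was −0.29 with an SE of 0.13 and an interval of −0.58 to 0.0012, and did not pass (adjusted p = 0.157). E2f5, its close relative, was 7.64, 7.66 and 7.45 in Dcr KO cells and 7.59, 7.43 and 7.57 in Dcr WT cells. These values overlapped throughout, with a difference of 0.05 and an interval of −0.19 to 0.30 (adjusted p = 0.766). Its bright probe sets 1417444_at and 1460207_s_at differed by 0.16 and 0.06 (adjusted p = 0.427 and 0.795). The second of these, by the suffix of its name, may also detect related transcripts.

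E2f6 and E2f8 repress without pocket proteins, E2f6 within a variant Polycomb complex and E2f8 as an atypical factor that needs no dimerization partner. E2f6 was 5.79, 5.78 and 5.92 in Dcr KO cells and 5.65, 5.61 and 5.65 in Dcr WT cells. Every Dcr KO array was above every Dcr WT array by a small margin, at a difference of 0.20 with an interval of −0.02 to 0.42 (adjusted p = 0.188). Its bright probe set 1448835_at read 9.14, 9.17 and 9.22 in Dcr KO cells and 9.12, 8.76 and 9.10 in Dcr WT cells, a difference of 0.18 (adjusted p = 0.391). Dcr WT replicate 2 stood below the other arrays, and without it the difference was 0.07. The dim probe set, 1437914_at, was below the minimum and overlapped, at 2.44, 2.39 and 2.62 in Dcr KO cells. It read 2.17, 2.45 and 2.19 in Dcr WT cells. Dcr WT replicate 2 was thus its highest Dcr WT array, so that the probe sets offset each other there in the gene value.

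E2f8 had the widest interval among the members. It was 5.53, 6.02 and 6.53 in Dcr KO cells and 5.86, 5.13 and 5.77 in Dcr WT cells. Both groups were widely spread and overlapped, so that the difference of 0.44 had an SE of 0.28 and an interval of −0.21 to 1.08 (adjusted p = 0.313). Its dim probe set, 1444319_at, was the more widely spread, at 2.50, 3.45 and 4.46 in Dcr KO cells and 3.28, 1.73 and 3.04 in Dcr WT cells. The bright one, 1436186_at, was tight, at 8.55, 8.59 and 8.60 in Dcr KO cells and 8.44, 8.53 and 8.50 in Dcr WT cells, with a difference of 0.09 (adjusted p = 0.572). Leaving out Dcr KO replicate 3 gave an E2f8 difference of 0.19, leaving out Dcr WT replicate 2 gave 0.21 and leaving out Dcr KO replicate 1 gave 0.69. With the brightest probe set in place of the mean, it was 0.09 rather than 0.44. E2f7, the other atypical factor and not one of the 10 genes, was 9.71, 9.65 and 9.51 in Dcr KO cells and 9.35, 9.72 and 9.39 in Dcr WT cells (difference 0.14, adjusted p = 0.496).

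**Figure D3:**
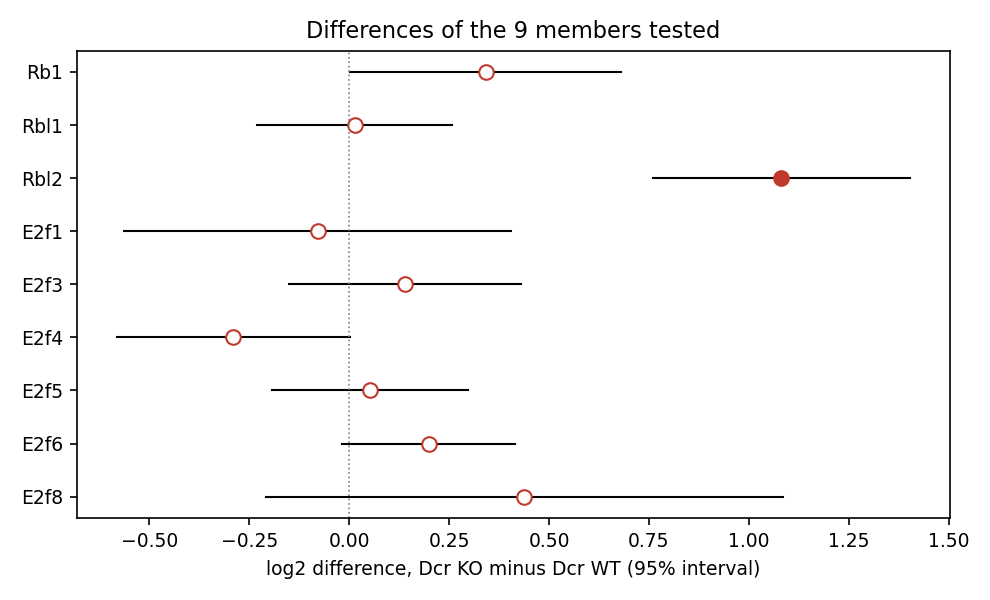
Differences on the log2 scale (horizontal axis, KO minus WT) for the 9 members tested (points) with the 95% interval from limma (lines), where the filled point passed at an adjusted p under 0.05. Rbl2 stood at 1.08 with an interval of 0.76 to 1.40, E2f8 had the widest interval, and the interval of Rb1 began just above 0 although the gene did not pass after adjustment.

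The members did not share one order over the arrays. Dcr KO replicate 3 was the lowest Dcr KO array for 6 of the 10 genes (Rbl1, Rbl2, E2f1, E2f2, E2f3 and E2f5) and the highest for the other 4 (Rb1, E2f4, E2f6 and E2f8). Dcr WT replicate 2 was the lowest Dcr WT array for 5 genes and the highest for 4. The median within-group SD was 0.15 for the 9 members tested and 0.16 for all genes tested, so that the members were measured about as precisely as the array as a whole. Correlations between arrays over the genes tested were 0.986 to 0.996 within the Dcr KO group, 0.988 to 0.992 within the Dcr WT group and 0.962 to 0.984 between them. Of the 23 probe sets, 10 had means under the minimum, and these took part in the gene values of 9 of the members, E2f4 excepted.

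Several of these genes are themselves known E2F targets, and promoter stretches that hold a match to an E2F motif are shown for those that had one. The motifs TTTCCCGC, TTTCGCGC, TTTGCCGC and TTTGGCGC were searched on both strands of the RefSeq promoter windows of 300 bases around each start (GRCm38.p6). The table held 9 windows of 7 members, and 3 windows, of 3 members, had 1 match each, so that no matches overlapped. Among all 32851 windows 2.26% held a match. Each stretch is given on its gene's strand with the match in capitals.
E2f2, chr4:136172294-136172323, plus strand: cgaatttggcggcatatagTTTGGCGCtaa
E2f3, chr13:29986056-29986085, minus strand: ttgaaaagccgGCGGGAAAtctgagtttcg
Rbl1, chr2:157204534-157204563, minus strand: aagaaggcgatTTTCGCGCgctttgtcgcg
In E2f3 the match, to TTTCCCGC, was on the strand opposite to the gene. None of the 3 genes passed the test at the gene level or in a probe set, with E2f2 tested in a probe set only. The 4 motifs were not found in the windows of E2f1, E2f6, E2f8 and Rbl2, the member that rose. Rb1, E2f4 and E2f5 had no promoter window in the RefSeq set used here and were not searched. A match is a run of letters and not a measured site.

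The cyclins and kinases that act on the pocket proteins included several that rose in Dcr KO cells. Of the 8 G1 cyclins and their kinases 4 rose and 0 fell, with a median difference of 0.39, where 6.91% of all genes rose. Ccnd2, a D-type cyclin that starts pocket protein phosphorylation, was 7.42, 7.50 and 8.09 in Dcr KO cells and 4.65, 5.04 and 4.39 in Dcr WT cells, with no overlap and a 7.87-fold higher level (difference 2.98, SE 0.22, adjusted p = 0.0010). Ccne2, a partner of Cdk2 in late G1, was 1.85-fold higher in Dcr KO cells (0.89, adjusted p = 0.0057). Cdk6 (0.75, adjusted p = 0.0225) and Ccnd3 (0.35, adjusted p = 0.0418) also passed. Without 1 array the count of rises was 2 or 3: Ccnd2 and Ccne2 passed in all 6 such fits, Cdk6 in 3 (lost without Dcr KO replicates 2 or 3 or Dcr WT replicate 3) and Ccnd3 in none. The CDK inhibitors, which keep pocket proteins unphosphorylated, rose in 2 of 5 tested, Cdkn1a (p21) at 2.05-fold (1.03, adjusted p = 0.0189) and Cdkn2b (p15) at 1.53-fold (0.61, adjusted p = 0.0217), and 0 fell. Cdkn1a was lost without Dcr KO replicate 2, Dcr WT replicate 1 or Dcr WT replicate 2, and Cdkn2b without Dcr KO replicates 2 or 3, with adjusted p-values up to 0.0531 and 0.0691. Cdkn2a, chosen after its values were seen, was 3.60, 4.27 and 4.28 in Dcr KO cells and 2.96, 2.15 and 2.92 in Dcr WT cells, apart but with a mean under the minimum.

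The partners and targets of the members were mostly not past the test. The dimerization partners Tfdp1 and Tfdp2 differed by −0.10 and −0.03 (adjusted p = 0.51 and 0.865). None of the 7 genes tested of the MuvB core with B-Myb and FoxM1 passed, and the nearest was Mybl2 (B-Myb), at 9.79, 9.66 and 9.66 in Dcr KO cells and 10.01, 10.01 and 9.97 in Dcr WT cells (difference −0.29, adjusted p = 0.0739). Over all genes tested 6.91% rose and 6.42% fell. Among 31 E2F targets of the G1/S transition 0 rose and 1 fell, with a median of −0.09. This was Orc1, a subunit of the origin recognition complex, at 7.14, 7.30 and 7.09 in Dcr KO cells and 7.92, 7.80 and 7.92 in Dcr WT cells (−0.70, SE 0.10, adjusted p = 0.0080), and it passed in all 6 fits without 1 array. A further 9 were lower in Dcr KO cells without overlap but did not pass, among them Slbp (−0.49, adjusted p = 0.055), Pold1 (−0.39, adjusted p = 0.062) and Gins2 (−0.45, adjusted p = 0.089), so that 10 of 31 were lower without overlap, beside 21.2% of all genes. Of the 23 mitotic targets of DREAM tested, 0 rose and 3 fell, with a median of −0.15: Cdc25c (−0.73, adjusted p = 0.0316) and Plk1 (−0.48, adjusted p = 0.0288), which promote entry into mitosis, and Cenpa (−0.44, adjusted p = 0.0446), the histone H3 of centromeres. Without overlap 8 of the 23 were lower in Dcr KO cells, beside 21.2% of all genes, and 1 was higher, beside 17.7%, namely Kif23 (0.37, adjusted p = 0.0579). Without 1 array 0 to 2 of the falls passed. Plk1 and Cenpa passed in 1 of 6 and Cdc25c in 2 of 6, with highest adjusted p-values of 0.0871, 0.127 and 0.104.

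**Figure D4:**
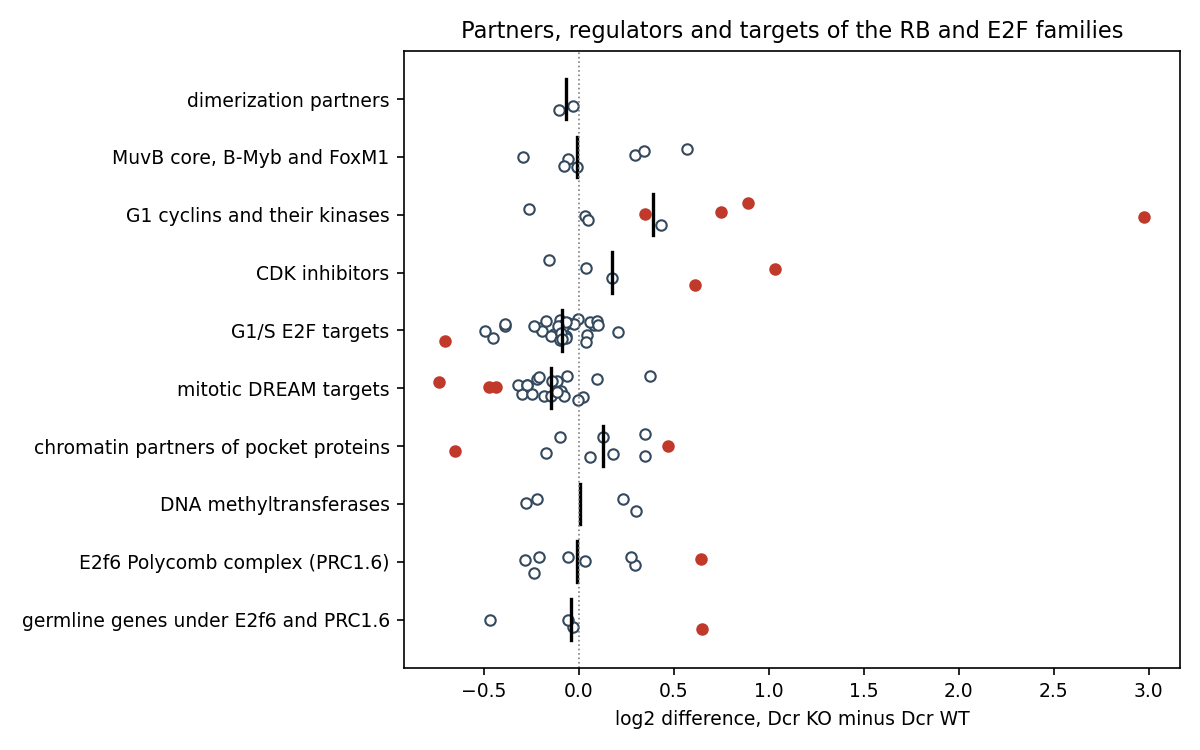
Differences on the log2 scale (horizontal axis, KO minus WT) for each tested gene (points) in 10 groups of partners, regulators and targets of the pocket proteins and E2F factors, with filled points for genes that passed at an adjusted p under 0.05 and a bar for each group's median. The G1 cyclins and their kinases had 4 rises up to 2.98 (Ccnd2), and the mitotic targets had 3 falls around a median of −0.15.

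Of the 9 chromatin partners of pocket proteins tested 1 rose and 1 fell in Dcr KO cells, with a median difference of 0.13. Over all genes tested 6.91% rose and 6.42% fell. Without overlap 3 of the 9 were higher and 2 lower, beside 17.7% and 21.2% of all genes. The gene that fell was Kmt5c, which trimethylates histone H4 lysine residues in heterochromatin (−0.65, adjusted p = 0.0194). It passed in 3 of the 6 fits without 1 array, and was lost without Dcr KO replicate 2 or Dcr WT replicates 1 or 3 (adjusted p up to 0.0679). The DNA methyltransferase genes did not pass in either direction. Among them, the de novo enzyme genes Dnmt3a and Dnmt3b are those for which Rbl2 is known as a repressor. Dnmt3a was 6.43, 6.42 and 6.62 in Dcr KO cells and 6.29, 6.18 and 6.09 in Dcr WT cells, higher without overlap (0.30, adjusted p = 0.0997). Dnmt3b ran the other way, at 11.47, 11.42 and 11.36 in Dcr KO cells and 11.87, 11.68 and 11.55 in Dcr WT cells, lower without overlap (−0.28, adjusted p = 0.131). Dnmt1 and Dnmt3l overlapped between groups (0.23 and −0.22).

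The variant Polycomb complex that holds E2f6 is PRC1.6. Over all genes tested 6.91% rose and 6.42% fell, and in this complex 1 gene passed among 8. This was Max, a DNA-binding subunit that also pairs with Myc, which rose in Dcr KO cells (0.64, adjusted p = 0.0305) and passed in 2 of the 6 fits without 1 array, lost without Dcr KO replicates 2 or 3 or Dcr WT replicates 2 or 3. Wdr5 was at −0.28 (adjusted p = 0.0978), the partner of Max, Mga, at 0.29 (adjusted p = 0.196) and the core subunits L3mbtl2 and Pcgf6 at −0.24 and −0.06 (adjusted p = 0.40 and 0.759). Among germline genes silenced through E2f6 and this complex, 5 of the 9 measured were below the minimum and 4 were tested. Ddx4, an RNA helicase of germ cells, rose in Dcr KO cells (0.65, adjusted p = 0.0207) and was lost without Dcr KO replicate 2 (adjusted p = 0.0522), whereas Mael and Stag3 were level (−0.06 and −0.03) and Tdrkh was at −0.47 (adjusted p = 0.080).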

How the data were processed

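Expression was measured in 6 samples, 3 Dcr KO and 3 Dcr WT, on oligonucleotide arrays. The values that the authors deposited are on the log2 scale, with 1 value for a probe set on an array, and GCRMA 2.20.0 and R 2.11.1 are named in the submitters' processing notes. The genome build behind the array annotation was not given in the sources used here, nor was it stated whether other arrays entered the normalization, which could shift values. No array column was left unused (0). Probe sets with 1 symbol in the platform annotation (34945) were used, and 932 with several and 9160 with none were left out. Gene values are means of log2 values, so that dim probe sets lower a gene's value and can move its difference either way.

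Groups were compared with lmFit and eBayes of limma 3.58.1 (R 4.3.3) on genes, and separately on probe sets, whose mean was 4 or more, and p-values were adjusted by Benjamini-Hochberg. The smallest two-sided p of an exact permutation test with 3 arrays against 3 is 0.1, so limma's model across genes was used. The number of arrays limits the precision. The p-values rest on the spread between these arrays, with each gene's variance moderated by limma across genes. All arrays are of the same floxed line, so that the p-values do not cover differences between lines. The test was checked on simulated data with 200 of 8782 genes changed. It called 80% of the genes changed 2-fold and 46.5% of those changed 1.5-fold. Changes of that smaller size could thus often be missed. Tables were handled in Python 3.11.15 with pandas 2.3.3.

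The members, lists and tests were chosen with earlier results of these data known. The text names all members, Dicer1, and of each list up to 4 genes with the smallest adjusted p and those that passed, except for 1 result among the chromatin partners that is not reported here. E2f7, Cdkn2a, L3mbtl2, Pcgf6 and Tubb3 with the other named markers were added outside that rule. Alternatives were other minimum levels, scalings, gene summaries and variance models, a replicate block and leaving out each array. MiRNA and promoter sequences are from RefSeq tables on GRCm38.p6, and no genome, UTR or protein sequence was used.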

Additional observations from a re-analysis of the deposited data

How the results depend on the processing

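Rbl2 was higher in Dcr KO cells under all 12 alternatives that tested it, with differences of 0.97 to 1.34 and adjusted p-values up to 0.027. With a minimum mean of 5 it was not tested, since its mean was 4.64, and the count of members that rose was 0 of the 5 tested. With the brightest probe set of each gene it was 2 (Rbl2 and Rb1). Without 1 array it was 1 each time, lowest and highest alike, and no alternative gave a member that fell. Over all genes, 607 rose and 564 fell, and without 1 array 220 to 465 rose and 137 to 376 fell. When Dcr KO replicate 2 was left out 220 rose and 137 fell, when Dcr KO replicate 3 was left out 384 and 299, and when Dcr WT replicate 3 was left out 284 and 155. Falls numbered 363 with Dcr WT replicate 1 left out and 283 with Dcr WT replicate 2 left out. The share of rises among calls was 51.8%, 47.5% after median centring and 53.2% after quantile normalization.

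Signs turned only for uncalled differences: Rbl1 was −0.0038 after median centring and −0.040 to 0.092 without 1 array, and E2f1 was −0.22 to 0.11. Without 1 array the ranges of probe sets were −0.082 to 0.17 for 1425166_at (Rbl1), −0.047 to 0.24 for 1434564_at (E2f3), −0.02 to 0.195 for 1460207_s_at (E2f5), −0.46 to 0.15 for 1417878_at and −0.29 to 0.13 for 1431875_a_at (both E2f1).

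The labels number the replicates in both groups, but the deviations of same-numbered samples from their group means correlated at −0.217, −0.022 and 0.029, so the numbers were not taken to pair the samples. With the replicate number as a block 354 genes rose and 243 fell. Under the block Rbl2 passed (adjusted p = 0.0207) and the bright Rb1 probe set did not (0.0979), 2 of the G1 cyclins and kinases rose, and 0 of the mitotic targets fell. No sample correlated best with the sample of its own number in the other group. GCRMA values of dim probe sets limit what could be seen for E2f2 and for the second probe sets of Rb1, Rbl2, E2f6 and E2f8.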
